A study of Mus musculus with 4 samples.

Results

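Periodontal and tendon-like matrix genes were followed in single-cell RNA sequencing (scRNA-seq) libraries of the mouse incisor. The set held 9 genes, Postn, Tnc, Tnn, Thbs1, Thbs2, Spon1, Tnmd, Scx and Mkx, found by matching their symbols among the 32285 gene identifiers of the count matrices, where each symbol matched 1 identifier. Proximal tissue of lower incisors from 15-day-old mice was made into 4 libraries, with 2 from each genotype, WT and Din-KO. Both Din-KO libraries came from mice with the conventional knockout allele (tm1b), in which germline Cre had removed exon 2 of Din in every tissue and a LacZ reporter is driven by the Din promoter, and no other allele or treatment is given for either genotype. The sources used here do not say how many mice went into each library, so p-values measure only the spread between these libraries, which may be technical.

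Most of these genes encode secreted matricellular proteins, which sit among collagen fibers and bind cell-surface integrins and other receptors. The periodontal ligament, which holds the tooth in its socket and descends from the dental follicle, is known for periostin (Postn), and tendons and ligaments in general are known for the transcription factors scleraxis (Scx) and mohawk (Mkx) and for the membrane protein tenomodulin (Tnmd). The continuously growing incisor holds a dental follicle outside the tooth, pulp inside it and odontoblasts that lay down dentin between them, so the levels of the genes could be compared among these neighboring tissues.

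On the GRCm38 assembly all 9 genes are protein coding and lie on different chromosomes. Postn is at chr3:54361109-54391037 (plus strand), Tnc at chr4:63959785-64047015 (minus), Tnn at chr1:160085029-160153580 (minus), Thbs1 at chr2:118111876-118127133 (plus) and Thbs2 at chr17:14665500-14694235 (minus). Spon1 is at chr7:113765998-114043370 (plus), Tnmd at chrX:133850980-133865577 (plus) and Scx at chr15:76457452-76459458 (plus). Exons of Tnc and Thbs1 overlap an antisense gene each and those of Mkx a gene on the same strand, but these neighbors had 9, 3 and 1 UMIs in all kept cells.

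RefSeq promoter windows (GRCm38.p6) matched 5 of the 9 genes, and the 150 bases before the start of each of these 5 are shown because several of them moved together between libraries and because scleraxis is a basic helix-loop-helix factor, a family that binds E-boxes. Capitals mark the E-box letters CANNTG, which read the same on both strands.
Postn, chr3:54360957-54361106, plus strand: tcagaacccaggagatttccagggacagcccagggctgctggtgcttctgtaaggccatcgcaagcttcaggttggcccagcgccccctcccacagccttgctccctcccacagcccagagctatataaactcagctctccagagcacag
Tnc, chr4:64047016-64047165, minus strand: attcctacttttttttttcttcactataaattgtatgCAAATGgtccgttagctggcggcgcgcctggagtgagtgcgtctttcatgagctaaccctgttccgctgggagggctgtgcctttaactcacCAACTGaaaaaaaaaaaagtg
Tnn, chr1:160153581-160153730, minus strand: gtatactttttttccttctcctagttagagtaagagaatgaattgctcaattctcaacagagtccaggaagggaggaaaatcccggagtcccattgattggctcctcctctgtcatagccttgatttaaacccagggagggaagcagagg
Tnmd, chrX:133850830-133850979, plus strand: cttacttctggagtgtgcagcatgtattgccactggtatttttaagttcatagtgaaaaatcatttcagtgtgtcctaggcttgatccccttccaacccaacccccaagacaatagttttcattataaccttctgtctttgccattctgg
Thbs2, chr17:14694263-14694412, minus strand: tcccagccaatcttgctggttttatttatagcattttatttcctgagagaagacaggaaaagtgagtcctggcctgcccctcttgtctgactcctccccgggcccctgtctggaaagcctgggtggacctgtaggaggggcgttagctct
The Tnc window held 2 matches and the windows of Postn, Tnn, Tnmd and Thbs2 held 0, while 15658 of 32851 RefSeq windows of the same length (47.7%) held at least 1. A match is a description of these letters only.

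The filters on genes, mitochondrial and hemoglobin content kept 11310 of 20502 barcodes, between 1272 and 4575 cells in a library, with medians of 8016 to 11587.5 unique molecular identifiers (UMIs) in a cell. Clustering without the 9 genes gave 32 clusters, of which 14 with 7155 cells were mesenchyme-like. Library pairs shared between 0 and 4 barcodes. Follicle-like cells numbered 1058 in 2 clusters, pulp-like cells 4623 in 6 and odontoblast-like cells 655 in 3, and levels are given as CPM, the UMIs of a gene per 1000000 summed UMIs of a class in a library. The number of cells behind a level was 225 to 326 for follicle, 197 to 2211 for pulp and 118 to 243 for odontoblast. Here the libraries numbered 2 in the labels had fewer pulp-like cells (251 and 197) than those numbered 1 (1964 and 2211).

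Clusters were named by scoring marker lists without the 9 genes, so the levels of these markers describe the classes and are no separate check of their names. Nts, a neuropeptide precursor among the follicle markers, was at 1052 to 1436 CPM in follicle-like and 64.19 to 143.5 CPM in pulp-like cells, and Bmp3 at 135.1 to 347.8 against 0.3355 to 8.343 CPM. The summed follicle markers were at 3138 to 3688 CPM in follicle-like and 205.9 to 375.8 CPM in pulp-like cells, and the odontoblast markers at 5225 to 7276 CPM in odontoblast-like and 27.88 to 69.65 CPM in follicle-like cells. Osteoblast markers were also high in odontoblast-like cells, at 4116 and 5082 CPM in the libraries numbered 1 and at 37330 and 31030 CPM in those numbered 2, above the odontoblast markers of the latter. The summed pulp markers went against the name, with 5092 to 5647 CPM in follicle-like and 2710 to 3115 CPM in pulp-like cells. Sfrp2 made up much of that sum, at 3228 to 4596 CPM in follicle-like and 142.4 to 696 CPM in pulp-like cells. The pulp marker Cldn10 was at 25.6 to 47.83 against 273 to 667.4 CPM, and Enpp2, Gpha2, Tac1, Fgf3 and Foxd1 were also lower in follicle-like cells without overlap. Smoc2, Igfbp5, Angpt4 and Nnat overlapped. Of these, Angpt4 (means of 242.8 against 144 CPM) and Nnat (14.64 against 6.414 CPM) were higher in follicle-like cells. Of skeletal muscle markers, 3 or 4 of 5 were at 0 in follicle-like cells and the sum stayed between 2.647 and 5.377 CPM.

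The libraries numbered 2 stood apart from those numbered 1 in both genotypes, in several of the 9 genes and in other markers, so results that rest on this are given within each number as well. In follicle-like cells the summed mesenchyme markers were at 12660 and 12410 CPM in the libraries numbered 1 and at 32110 and 26370 CPM in those numbered 2, and the osteoblast markers at 483.6 and 259.4 against 1177 and 1182 CPM. Epithelium markers were at 42.67 and 104.4 against 504.2 and 376.9 CPM and neutrophil markers at 20.2 and 9.867 against 220.9 and 293.2 CPM. The descriptions name the libraries of the 2 numbers by different schemes without saying that they were prepared apart, and the part of these values in the results was not tested.

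Follicle-like cells differed from pulp-like cells in 7 of the 8 genes that could be tested. Tnmd, Thbs2, Spon1, Tnn, Thbs1 and Mkx were higher in follicle and Tnc was lower, while Postn did not pass the test and Scx had too few UMIs to be tested. Of all 13446 genes tested, 17.5% were called higher and 18% lower, so the 6 higher calls among 8 genes are read against 17.5%. The median log2 fold change was 2.45 over the 8 genes and -0.0282 over all genes. The genes were chosen with earlier results of these data known, so their share of calls is a description and no independent result. The same holds for the other counts of these genes and of the lists below. Clusters were formed and named from other genes of the same cells, so these tests compare classes that were drawn from these cells. When cells were instead gated one by one from the marker lists, 463 of the follicle-like cells passed as pulp against 259 as follicle, and 2 of the genes, Tnmd (2.23, adjusted p = 0.0118) and Spon1 (1.54, adjusted p = 0.0242), were called higher and Tnc lower. Under this gate the log2 fold change was 0.35 for Mkx (adjusted p = 0.311), 0.83 for Thbs1 (adjusted p = 0.168), 0.97 for Thbs2 (adjusted p = 0.126) and 0.83 for Tnn (adjusted p = 0.259, edgeR). The shares of 17.5% and 18% belong to the clusters. The gate called far fewer of all genes, as given in the last section, so its calls are not read against these shares.

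**Figure D1:**
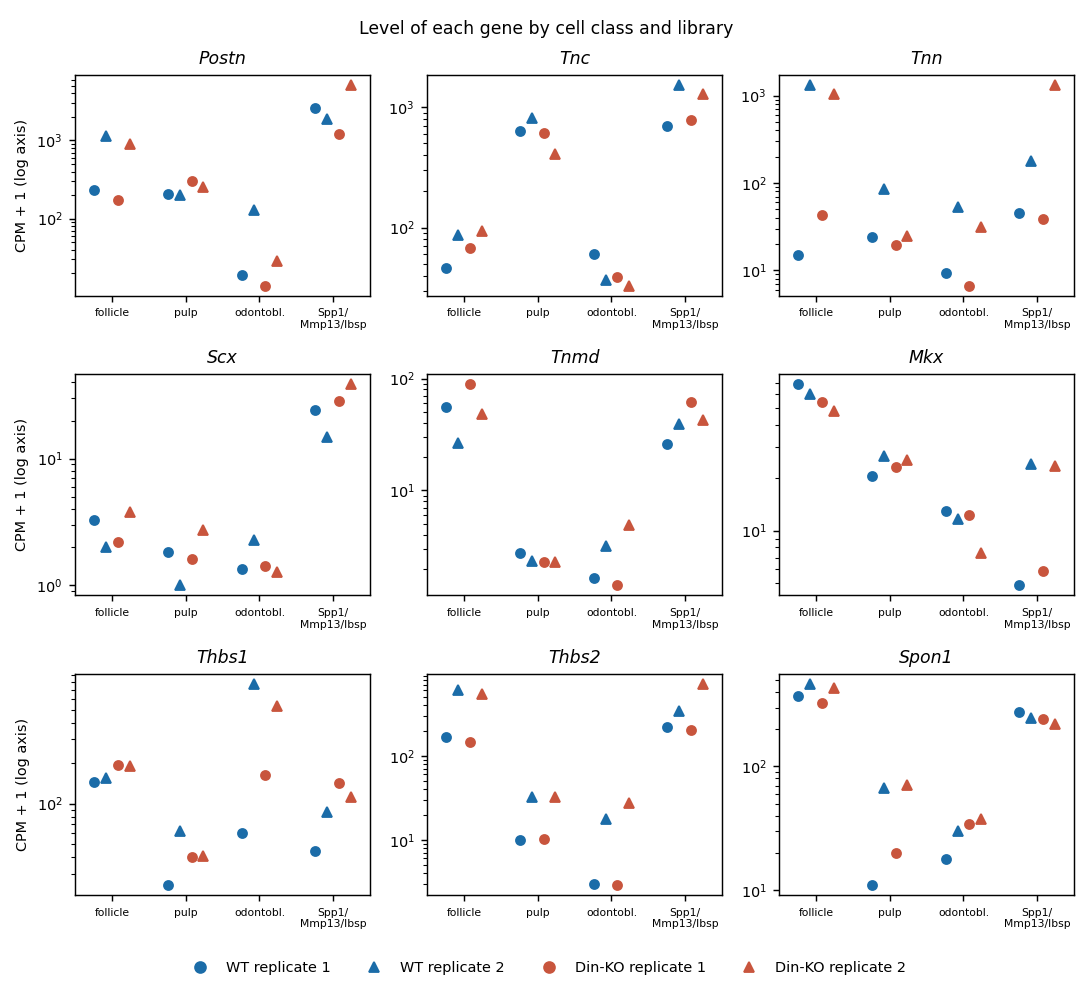
CPM + 1 (log axis) of the 9 genes in follicle-like, pulp-like and odontoblast-like cells and in the Spp1/Mmp13/Ibsp cluster, with 1 point per library, colored by genotype and shaped by replicate number. Spon1 and Thbs2 sit higher in follicle than in pulp in all 4 libraries, Tnc sits lower, and Tnn in follicle spreads from 13.94 to 1338 CPM.

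Periostin is the matricellular protein most used to mark the periodontal ligament. Postn stood at 234.1 CPM in follicle-like cells of WT replicate 1, 170.6 of Din-KO replicate 1, 1144 of WT replicate 2 and 893.8 of Din-KO replicate 2, and at 205.4, 297.8, 201.2 and 252.5 CPM in pulp-like cells of the same libraries. In the libraries numbered 1 follicle and pulp overlapped, and in those numbered 2 follicle was well above pulp. Over all 4 the log2 fold change was 0.75 (SE 0.55, adjusted p = 0.319, by the quasi-likelihood test of edgeR and the Benjamini-Hochberg method, as for every adjusted p here). Within the libraries numbered 1 it was -0.31 (adjusted p = 0.248, edgeR) and within those numbered 2 it was 2.19 (adjusted p = 0.0074, edgeR). Clustering without integration brought it to 2.07 (adjusted p = 0.0311, edgeR). In odontoblast-like cells Postn was at 18, 12.88, 125.9 and 27.5 CPM, below the follicle of every library, and the log2 fold change of follicle against odontoblast was 3.60 (SE 0.593, adjusted p = 0.000565, edgeR).

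The tenascins are large glycoproteins of developing and healing connective tissue, and they ran in opposite directions. Tnc (tenascin C) was at 45.51, 66.18, 85.05 and 92.06 CPM in follicle-like cells and at 632.5, 610.3, 808.6 and 409.9 CPM in pulp-like cells of WT 1, Din-KO 1, WT 2 and Din-KO 2. Every follicle value lay below every pulp value, with a log2 fold change of -3.04 (SE 0.252, adjusted p = 7.99e-06, edgeR). Against odontoblast, where Tnc was at 31.99 to 59 CPM, the log2 fold change of 0.63 (SE 0.251) had an adjusted p of 0.0578 in edgeR and did not pass. It passed without WT replicate 1 (0.98, adjusted p = 0.00469, edgeR), with DESeq2 (0.63, adjusted p = 0.0482) and without integration (2.96, adjusted p = 8.88e-05, edgeR).

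Tnn, the gene of tenascin W, which is found in developing bone and in periodontal tissue, was at 13.94 and 41.87 CPM in follicle-like cells of the libraries numbered 1 (WT, then Din-KO) and at 1338 and 1038 CPM in those numbered 2. Pulp-like cells had 23.04, 18.46, 83.43 and 23.55 CPM and odontoblast-like cells 5.7 to 52.13 CPM. WT replicate 1 was the 1 library where Tnn was lower in follicle than in pulp. The log2 fold change against pulp was 2.71 (SE 0.81, adjusted p = 0.0241, edgeR), and it did not pass within the libraries numbered 1 (0.41, adjusted p = 0.375, edgeR), without Din-KO replicate 2 (1.80, adjusted p = 0.11) or without WT replicate 2 (2.04, adjusted p = 0.146). The WT libraries alone gave 2.17 (adjusted p = 0.283) and the Din-KO libraries alone 3.24 (adjusted p = 0.0728, edgeR). Against odontoblast Tnn had a log2 fold change of 3.79 (SE 0.822, adjusted p = 0.00319, edgeR), and 3.39 (adjusted p = 0.0915) in the WT libraries alone.

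Thrombospondins are matricellular glycoproteins that bind many matrix and receptor partners. Thbs2 was at 168.4, 143.9, 602.3 and 539.8 CPM in follicle-like cells, at 8.891, 9.262, 31.7 and 31.4 CPM in pulp-like cells and at 2, 1.9, 16.87 and 26.66 CPM in odontoblast-like cells. Follicle overlapped neither pulp nor odontoblast, while pulp and odontoblast overlapped each other. Against pulp the log2 fold change was 4.14 (SE 0.272, adjusted p = 2.06e-06, edgeR), and 4.88 against odontoblast (SE 0.301, adjusted p = 6e-07, edgeR).

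Thbs1 varied little in follicle-like cells, at 143.9, 193.7, 155.2 and 188.3 CPM, and stood at 23.82 to 61.07 CPM in pulp-like cells. The log2 fold change against pulp was 2.20 (SE 0.505, adjusted p = 0.00631, edgeR), and 2.19 (adjusted p = 0.143) with the WT libraries alone. Odontoblast-like cells had 59.66, 163.2, 775 and 532.9 CPM, below follicle in the libraries numbered 1 and above it in those numbered 2. Follicle against odontoblast gave a log2 fold change of -0.95 (SE 0.511, adjusted p = 0.148, edgeR) over all 4, 0.55 (adjusted p = 0.0294) within those numbered 1 and -2.14 (adjusted p = 5.21e-05) within those numbered 2. Without WT replicate 1 it was -1.51 (adjusted p = 0.0193), and without integration -1.88 (adjusted p = 0.00479, edgeR).

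Most Thbs1 of the odontoblast-like cells came from 1 of their 3 clusters, led by Bglap, Bglap2 and Dspp. That cluster held 53.68% of the Thbs1 UMIs of the mesenchyme, at 965.7, 2135, 1912 and 1808 CPM, while the Smpd3/Notum/Plac8 cluster had 4.176 to 9.226 CPM and the Dmp1/Dkk1/Ifitm5 cluster 5.944 to 171 CPM. The Dspp-rich cluster had 9 and 16 cells in the libraries numbered 1 and 65 and 44 in those numbered 2. The part of these cell numbers in the Thbs1 level of the class was not tested. This cluster scored 0.397 for odontoblast and 0.417 for osteoblast markers, and its part in the osteoblast sum of the class was not tested. Thbs1 is among its leading genes, so leaving it out lowers Thbs1 in odontoblast-like cells by construction, and follicle against odontoblast then gave 3.41. The same step moved Tnc to 0.92 (adjusted p = 0.0438, edgeR), and the other 6 genes stayed called higher. Among non-mesenchymal cells Thbs1 was highest in neutrophil-like cells, at 507.4 ± 453 CPM (SD, n = 4).

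Spon1 encodes F-spondin, a secreted protein with thrombospondin-type repeats. With the clusters of a class pooled, it was the member whose follicle level stood most apart from all other groups. Follicle was at 371.2, 325.1, 465.1 and 428.9 CPM, with a mean of 397.6 ± 61.9 CPM (SD, n = 4). It had no overlap with the group ranked next, the Spp1/Mmp13/Ibsp cluster at 246 ± 23.7 CPM. Taken alone, the Smoc2/Col8a1/Shisa2 cluster of the pulp-like cells spanned 57.78 to 455.35 CPM and overlapped follicle. Pulp-like cells had 9.953, 19.07, 66.08 and 70.21 CPM and odontoblast-like cells 16.67 to 36.76 CPM. Follicle differed by a log2 fold change of 3.68 from pulp (SE 0.388, adjusted p = 4.42e-05, edgeR) and of 3.65 from odontoblast (SE 0.39, adjusted p = 2.69e-05, edgeR). A UMI of Spon1 was found in 89.98% of follicle-like, 10.56% of pulp-like and 29.16% of odontoblast-like cells, whose median depths were 14967, 7850 and 17110 UMIs, and in 0.5736% of B-like cells at a median of 3090. After thinning to 2000 UMIs a cell, these 3 shares were 52.13%, 3.845% and 5.061%.

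Tenomodulin is a membrane glycoprotein of mature tendon cells. Tnmd was at 55.18, 87.84, 25.61 and 46.83 CPM in follicle-like cells and at 1.28 to 1.789 CPM in pulp-like cells, so the lowest follicle library was above every pulp library. The log2 fold change against pulp, 5.20 (SE 0.46, adjusted p = 1.22e-05, edgeR), was the widest among the 8 genes tested. Odontoblast-like cells held 2, 2, 10 and 14 UMIs, or 0.6666, 0.4222, 2.163 and 3.929 CPM, and the log2 fold change against them was 4.61 (SE 0.483, adjusted p = 2.34e-05, edgeR). A UMI of Tnmd was found in 23.35% of follicle-like, 1.017% of pulp-like and 1.221% of odontoblast-like cells. No B-like cell (0 of 523, at a median of 3090 UMIs) had one, which by a floor of 3 counts allows a share of cells with a UMI of up to 0.574% at that depth. Intervals and limits of this kind cover counting error only.

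The transcription factor mohawk acts on collagen genes of tendon cells, and its gene lies on the minus strand of chromosome 18. Mkx was at 67.42, 53.42, 59.43 and 47.43 CPM in follicle-like cells, 19.4, 22.12, 25.7 and 24.42 CPM in pulp-like cells and 12, 11.19, 10.6 and 6.455 CPM in odontoblast-like cells, with no overlap among the classes. Mkx differed by a log2 fold change of 1.36 from pulp (SE 0.139, adjusted p = 3.49e-05, edgeR) and of 2.30 from odontoblast (SE 0.155, adjusted p = 1.11e-06, edgeR).

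Scleraxis, the transcription factor by which tendon progenitors are recognized, was nearly absent from these classes. Scx stood at 2.276, 1.203, 0.9906 and 2.802 CPM in follicle-like cells, 0 to 1.744 CPM in pulp-like cells and 0.2806 to 1.298 CPM in odontoblast-like cells. The ranges of these classes overlapped. Within each library follicle was above pulp, and it was above odontoblast except in WT 2 (0.9906 against 1.298 CPM). These levels rest on 34 Scx UMIs in follicle-like, 29 in pulp-like and 10 in odontoblast-like cells, of 247 in all kept cells. Scx did not pass the filter on low counts, so a difference among these classes was not tested.

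Follicle-like cells were higher than odontoblast-like cells in 6 of the 8 genes tested and lower in 0, where 24.2% of all genes were called higher and 24.6% lower. The median log2 fold change was 3.63 over the 8 genes and -0.032 over all. Pulp against odontoblast gave 3 genes higher, Postn (2.85, adjusted p = 0.00335), Tnc (3.68, adjusted p = 3.19e-06) and Mkx (0.94, adjusted p = 0.000904, edgeR), and 1 lower, Thbs1 (-3.16, adjusted p = 0.000838, edgeR), where 24.1% and 21.6% of all genes were called in these directions. The 3 comparisons share their class sums, so they are given side by side and not as independent results.

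**Figure D2:**
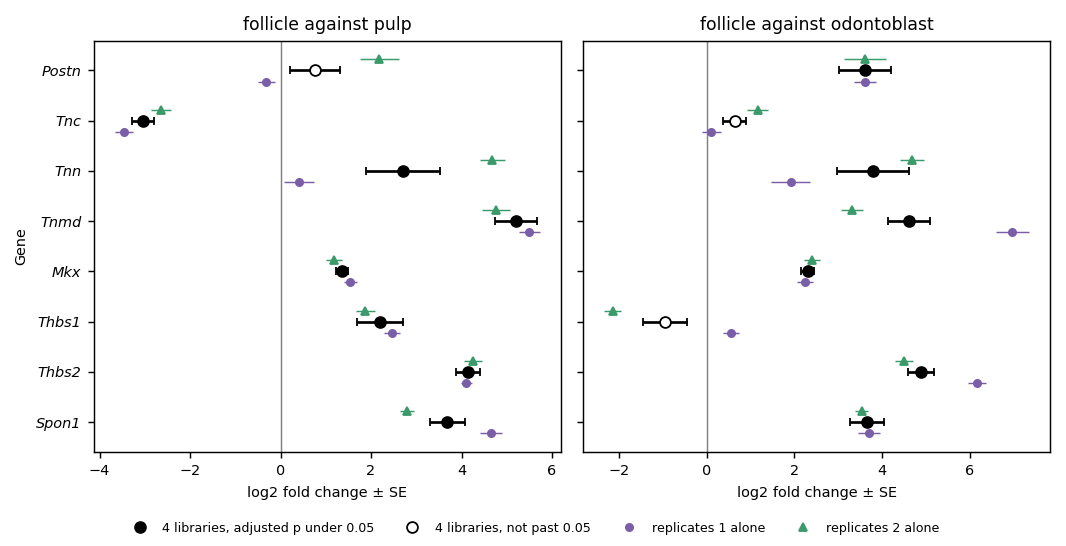
log2 fold change ± SE of the tested genes in follicle against pulp (left) and against odontoblast (right), for all 4 libraries in black (filled for an adjusted p under 0.05) and for the libraries numbered 1 (circles) and 2 (triangles) alone in color. Over 4 libraries Tnmd, Thbs2 and Spon1 lie to the right of 3.6 in both follicle comparisons, and Tnc lies at -3.04 against pulp and 0.63 against odontoblast.

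The follicle-like cells fell into 2 clusters that differed in 3 of 8 genes. The Bmp3/Dkk2/Nts subset (456 cells) had more Tnmd, and the Sfrp2/Pcp4/Gm26771 subset (602 cells) had more Thbs1 and Tnc. Of all 12690 genes tested, 12% were higher and 12.7% lower in the Bmp3/Dkk2/Nts subset, beside 1 and 2 of the 8.

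Tnmd was at 102.9, 204.6, 44.1 and 90.38 CPM in the Bmp3/Dkk2/Nts subset and at 2.978, 4.536, 3.992 and 6.55 CPM in the other. The lowest library of the first was above the highest of the second, with a log2 fold change of 4.52 (SE 0.437, adjusted p = 9.89e-06, edgeR). Of 1218 Tnmd UMIs in the mesenchyme, 928 (76.19%) were in this subset. Thbs1 showed the opposite order, at 44.11, 33.52, 68.51 and 93.3 CPM against 253.1, 308, 256.7 and 276.2 CPM in the Sfrp2/Pcp4/Gm26771 subset, a log2 fold change of -2.29 (SE 0.474, adjusted p = 0.003, edgeR). Tnc was at 41.93 to 59.53 against 49.43 to 130.2 CPM, with overlap between the subsets and a log2 fold change of -0.86 (SE 0.293, adjusted p = 0.0445, edgeR). This call was lost without Din-KO replicate 1 (-1.09, adjusted p = 0.0628), without Din-KO replicate 2 (-0.64, adjusted p = 0.159) and without WT replicate 2 (-0.64, adjusted p = 0.223).

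The other genes differed less between the follicle subsets. Spon1 was at 324.8 to 490.3 CPM in the Bmp3/Dkk2/Nts and 325.3 to 435.7 CPM in the Sfrp2/Pcp4/Gm26771 subset (log2 fold change 0.19), Mkx at 45.09 to 64.8 and 47.39 to 72.15 CPM (-0.20), and Thbs2 at 200.6 to 612.7 and 103.5 to 597.2 CPM (0.57). Postn and Tnn each had a log2 fold change under 0.8 and spread with the library number in both. None of these 5 differences passed the test, which does not show that the subsets are equal, and Thbs2 did pass without a filter on low counts (0.56, adjusted p = 0.0419, edgeR). Dissociation stress genes moved between the subsets, with 6 of 12 lower and 0 higher in the Bmp3/Dkk2/Nts subset.

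Against pulp, both subsets had Tnmd, Mkx, Thbs2 and Spon1 higher and Tnc lower. The Sfrp2/Pcp4/Gm26771 subset had 5 of 8 genes higher and 1 lower (17.3% and 14.9% of all genes), and the Bmp3/Dkk2/Nts subset also 5 and 1 (21.8% and 21.2%). The fifth gene was Thbs1 in the former, with a log2 fold change of 2.88 (adjusted p = 0.000214, edgeR), where the latter had 0.59 (adjusted p = 0.341, edgeR). In the Bmp3/Dkk2/Nts subset it was Tnn, at 2.78 (adjusted p = 0.0139, edgeR), where the Sfrp2/Pcp4/Gm26771 subset had 2.06 (adjusted p = 0.0758, edgeR). The Tnmd difference from pulp was 6.27 in the Bmp3/Dkk2/Nts and 1.75 (SE 0.634, adjusted p = 0.047, edgeR) in the other subset.

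A cluster of 202 mesenchyme-like cells was led by Spp1, Mmp13 and Ibsp and given no class name. Among the mesenchyme-like clusters it had the highest mean levels of Postn and Scx. Its summed osteoblast markers stood at 16710 to 36850 CPM, beside 259.4 to 1182 CPM in follicle-like cells, and its follicle markers at 6155 to 9762 CPM. Most of the follicle sum was Mmp13, a leading gene of the cluster, at 5752 to 9162 CPM. Aspn was also above follicle-like cells, at 230.4 to 333.5 against 2.407 to 14.81 CPM. Nts (3.094 to 357.5 against 1052 to 1436 CPM), Pcp4 (27.79 to 105.3 against 914.3 to 1575 CPM) and Pthlh were below them, and Bmp3 and Aldh1a2 overlapped. The cluster had 83, 43, 40 and 36 cells in WT 1, Din-KO 1, WT 2 and Din-KO 2. The comparisons with it were added after its values had been seen.

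Postn in this cluster was at 2563, 1207, 1865 and 5183 CPM, above follicle-like cells in every library. The range overlapped that of a pulp-like cluster (Slc20a2/Postn/Pdlim3, 1544 to 3635 CPM). In the Spp1/Mmp13/Ibsp cluster 97.52% of the cells had a Postn UMI. Scx was at 23.2, 27.79, 13.74 and 37.71 CPM, with no overlap with any other group. It held 83 of the 159 Scx UMIs of the mesenchyme (52.2%), and 48 of its cells (23.76%, exact 95% interval 18.1 to 30.2%) had one. After thinning to 2000 UMIs 4.478% had one. Tnc was at 694.6, 786.4, 1540 and 1286 CPM, Thbs2 at 220.4, 201.1, 340.3 and 715 CPM and Tnmd at 24.75, 60.49, 38.15 and 41.9 CPM.

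Against follicle the Spp1/Mmp13/Ibsp cluster was higher in 3 of 9 genes, Postn (log2 fold change 2.53, SE 0.579, adjusted p = 0.00679), Tnc (3.93, SE 0.282, adjusted p = 8.88e-07) and Scx (3.88, SE 0.454, adjusted p = 4.42e-05, edgeR), and lower in 1. That 1 was Mkx, at 3.868, 4.905, 22.89 and 22.34 CPM (-2.16, SE 0.357, adjusted p = 0.000713, edgeR). Of all 13066 genes 9.25% were called higher and 9.54% lower. Against pulp 6 of the 9 were higher and 0 lower (16.4% and 17.2% of all genes), namely Postn (3.30), Scx (5.05), Tnmd (4.81), Thbs2 (4.34), Spon1 (3.01) and Tnc (0.84, adjusted p = 0.019, edgeR). So Scx and Mkx, both tendon transcription factors, had their top mean levels in different cells with the clusters of a class pooled. Scx was highest in this cluster and Mkx in follicle-like cells. Taken alone, the Smoc2/Col8a1/Shisa2 cluster of the pulp-like cells had Mkx at 47.44 to 65.24 CPM, within the follicle range. Postn is among the leading genes of the Spp1/Mmp13/Ibsp cluster, so joining that cluster to the follicle-like cells raises Postn there by construction. The log2 fold change of Postn against pulp was then 1.72.

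**Figure D3:**
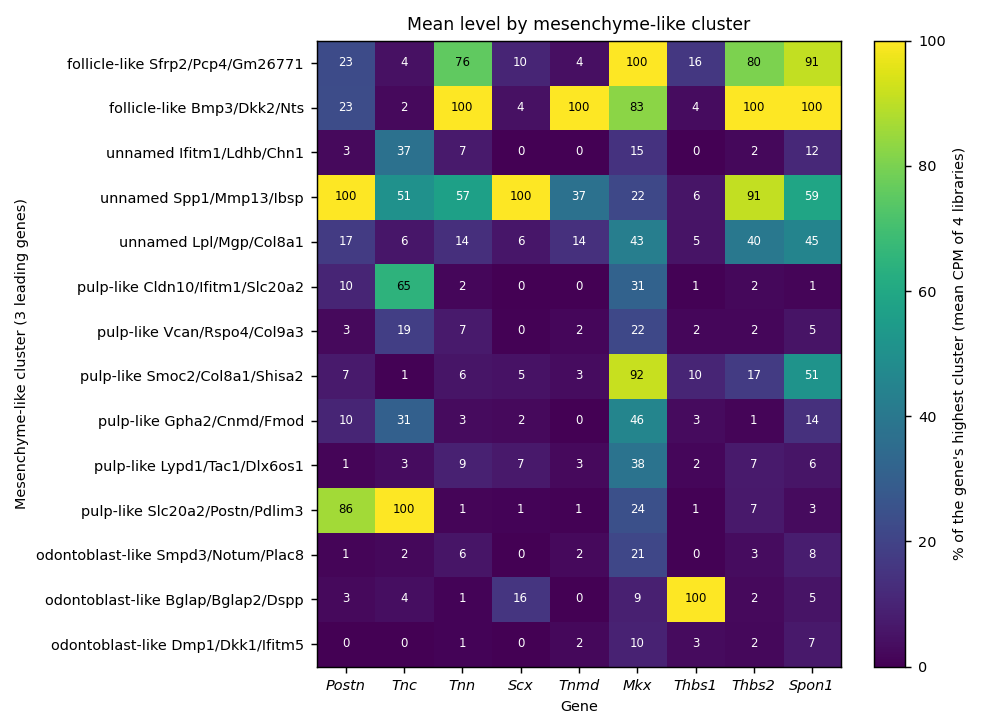
Mean CPM over 4 libraries of the 9 genes (columns) in the 14 mesenchyme-like clusters (rows), as a percent of the highest cluster of each gene. Postn and Scx peak in the Spp1/Mmp13/Ibsp cluster, Tnmd in the Bmp3/Dkk2/Nts follicle subset, Thbs1 in the Bglap/Bglap2/Dspp odontoblast-like cluster and Tnc in the Slc20a2/Postn/Pdlim3 pulp-like cluster.

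Within the pulp-like cells the genes were uneven too. Tnc was concentrated in 2 of the 6 clusters, at 975.3, 1254, 1815 and 1443 CPM in the Cldn10/Ifitm1/Slc20a2 cluster, which held 38.98% of the Tnc UMIs of the mesenchyme, and at 1594, 2095, 3459 and 1356 CPM in the Slc20a2/Postn/Pdlim3 cluster. The latter also had Postn at 1544, 2425, 1692 and 3635 CPM, but only 88, 153, 3 and 7 cells. It was named by Postn among its leading genes, so this level is a description, and leaving it out lowers Postn in pulp by construction (log2 fold change of follicle against pulp 1.59). The Smoc2/Col8a1/Shisa2 cluster had little Tnc (3.162 to 27.96 CPM) and the highest pulp levels of Mkx (47.44 to 65.24 CPM, within the follicle range), Thbs1 (110.6 to 306.9 CPM) and Spon1 (57.78, 72.88, 455.4 and 272 CPM). Its Thbs1 and Spon1 ranges overlapped those of follicle.

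Several of the genes were also found outside follicle, pulp and odontoblasts. Postn was at 582.4 ± 271 CPM (SD, n = 4) in glia-like and 352.4 ± 27.7 CPM in perivascular-like cells, and the glia range overlapped that of follicle. Thbs2 in perivascular-like cells was at 157.8 ± 79.7 CPM. Scx in epithelium-like cells was at 4.793 ± 0.666 CPM, above the follicle range. The unnamed Lpl/Mgp/Col8a1 mesenchyme had Spon1 at 187.8 ± 57.6, Thbs2 at 162.3 ± 101 and Mkx at 26.76 ± 16.9 CPM, while the unnamed Ifitm1/Ldhb/Chn1 mesenchyme had Tnc at 792.9 ± 208 CPM, in 97% of its cells, and 0 UMIs of Scx and Tnmd in 466 cells, which allows a share of up to 0.644%.

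Some of the genes were seen in the same cells. Of 363 mesenchyme-like cells with a Tnmd UMI, 80.99% also had Spon1, 76.03% Thbs2 and 84.57% Postn, and 48.76% had Mkx. Of 113 cells with Scx, 83.19% had Postn and 16.81% Tnmd. Of the 363 cells, 60.88% were in the Bmp3/Dkk2/Nts subset. There 97.15% of all cells had Spon1, 86.62% Thbs2, 90.35% Postn and 52.63% Mkx. Of the 113 cells, 42.48% were in the Spp1/Mmp13/Ibsp cluster, where 97.52% of all cells had Postn. The shares were not separated from the clusters in which the cells lie. Deeper cells are also more likely to have a UMI of both genes, so these shares are descriptions.

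Over 48 sums of mesenchyme clusters by library the levels of Thbs2 and Spon1 ran together (Pearson r = 0.834 on log2(CPM + 1)), as did Tnmd with Thbs2 (0.774) and with Spon1 (0.728) and Tnn with Thbs2 (0.716). Tnc went against Thbs1 (-0.306) and Spon1 (-0.303). Among 10929 genes, those with the pattern most like Thbs2 were Ndnf (0.928), Itgb5 (0.906) and Ptgfrn (0.903), those most like Spon1 were Epha3 (0.907), Runx2 (0.898) and Ltbp4 (0.895), and those most like Tnmd were Srpx2 (0.872), Cdc42ep3 (0.836) and Ndnf (0.803). Tnc was closest to Fmod (0.901), Fgfr3 (0.9) and Slc26a7 (0.872), Postn to Col3a1 (0.874), Fap (0.849) and Timp2 (0.847), and Mkx to Slc25a21 (0.849), Alx1 (0.843) and Fbln5 (0.842). For Scx the nearest were Aspn (0.806), Col13a1 (0.798) and Pax3 (0.787), for Thbs1 Bgn (0.832), Podxl2 (0.77) and P3h3 (0.758), and for Tnn Camk2g (0.767), Amotl2 (0.729) and Efna5 (0.708). The sums share libraries and depth, so no test goes with these values.

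Other genes of the same matrix were counted from lists, in the same comparison of follicle with pulp. Some listed genes, such as Aspn, Smoc2 and Twist1, were also markers used in naming the clusters. The list counts, here and below, are therefore not fully separate from the naming. Of the fibril collagens and fibril-binding proteins, 21 of 32 tested were higher in follicle and 7 lower, with a median log2 fold change of 1.11 beside -0.0282 over all genes. Ogn (osteoglycin, a small leucine-rich proteoglycan) was at 1274 ± 187 CPM in follicle and 178.3 ± 82.1 in pulp (SD, n = 4, log2 fold change 2.85), with Fbln5 (2.49), an elastic-fiber protein, and the collagen cross-linking enzyme Loxl2 (2.42) next. Fmod (fibromodulin) ran the other way, at 25.69 ± 9.29 against 580.5 ± 192 CPM (-4.47), as did Fbln2 (-2.39) and Prelp (-1.77). Against odontoblast 17 were higher and 7 lower.

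Of the other matricellular and related secreted proteins, 11 of 20 were higher in follicle than in pulp and 4 lower (median 1.06). The matricellular proteins Ccn3 (5.67) and Ccn5 (2.84) and the F-spondin relative Spon2 (2.39) led the higher ones, all at means near 5 CPM in follicle. Vcan (versican), at 61.77 ± 20.7 against 1018 ± 235 CPM (-4.07), Tgfbi (-4.02), which is related to periostin, and Hapln1 (-1.49), which links proteoglycans to hyaluronan, were lower. Against odontoblast 13 of 20 were higher and 5 lower.

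Of the receptors that bind these proteins, 11 of 19 were higher in follicle than in pulp and 2 lower (median 0.556). Egfr, at 50.62 ± 20 against 4.237 ± 2.89 CPM (3.85), and the integrin chains Itgb5 (2.78) and Itga3 (2.45) led the higher ones, while the integrin chain Itga8 (-0.91) and the phosphatase Ptprz1 (-2.72), a tenascin receptor, were lower. Of the TGF-beta genes and transcription factors that act on tendon and ligament genes, 9 of 24 tested were higher in follicle and 3 lower (median 0.222), and 12 did not pass. Foxc2 (4.06), Runx2 (2.38), at 431.8 ± 20.4 against 86.52 ± 21.4 CPM, and Twist1 (1.44) were higher, and Sox9 (-3.75), at 30.24 ± 12.8 against 401.9 ± 83.4 CPM, Tgfb2 (-1.54) and Smad7 (-1.28) were lower. All these named differences had an adjusted p under 0.05 in edgeR. Against odontoblast 12 and 6 of the receptors and 6 and 7 of the last list were higher and lower. All these list counts are read against the shares over all genes, 17.5% higher and 18% lower against pulp and 24.2% and 24.6% against odontoblast, and the last list was close to the latter. Of the 12 dissociation stress genes, Ier2 was lower in follicle than in pulp (-0.76) and 11 did not pass. Against odontoblast 6 of the 12 were higher and 1 lower (24.2% and 24.6% of all genes), and their part in the class differences was not tested.

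Several of the genes differed with the library number in both genotypes. The comparisons by number, here and below, were added after the data had been seen. With terms for genotype and number, the 4 libraries leave little to estimate the spread of each gene within a cell group. The p-values within a group thus rest mostly on a spread shared across genes. Between libraries numbered 2 and those numbered 1, with genotype as a term, 4 of 9 genes were higher in follicle-like cells and 1 lower, where 7.82% and 9.01% of all genes were called. Tnn had a log2 fold change of 5.41 (SE 0.349, adjusted p = 6.34e-06), Postn 2.29 (SE 0.109, adjusted p = 1.03e-06), Thbs2 1.82 (SE 0.113, adjusted p = 6.15e-06) and Tnc 0.63 (SE 0.151, adjusted p = 0.0182, edgeR). Tnmd fell by 1.05 on the log2 scale (SE 0.14, adjusted p = 0.000834, edgeR), and Mkx (-0.23), Thbs1 (-0.02), Spon1 (0.31) and Scx (0.01) did not pass.

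In pulp-like cells 4 of 8 genes were higher in the libraries numbered 2 and 0 lower (8.71% and 9.81% of all genes), namely Spon1 (2.18), Thbs2 (1.68), Tnn (1.12) and Thbs1 (0.61). The calls of Thbs1 and Tnn rested mostly on the WT libraries. Thbs1 was at 23.82 and 61.07 CPM in WT and 38.81 and 39.68 CPM in Din-KO pulp (numbered 1, then 2). Tnn was at 23.04 and 83.43 CPM in WT and 18.46 and 23.55 CPM in Din-KO pulp. In odontoblast-like cells 4 of 7 were higher and 0 lower (13.3% and 11.9% of all genes), namely Thbs2 (3.61), Thbs1 (2.75), Tnn (2.61) and Postn (2.12). In the Spp1/Mmp13/Ibsp cluster Tnn (3.52), Mkx (2.39), Thbs2 (1.25) and Tnc (0.96) were higher and 0 of 9 lower (2.1% and 1.59% of all genes). Tnn and Thbs2 were thus higher in the libraries numbered 2 in all 4 cell groups. Markers of mesenchyme, osteoblasts, epithelium and neutrophils moved with the number as given above, as did dissociation stress genes, at 599.9 and 1397 CPM in follicle-like cells of the libraries numbered 1 and 1450 and 2543 CPM in those numbered 2, and their part in these differences was not tested.

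**Figure D4:**
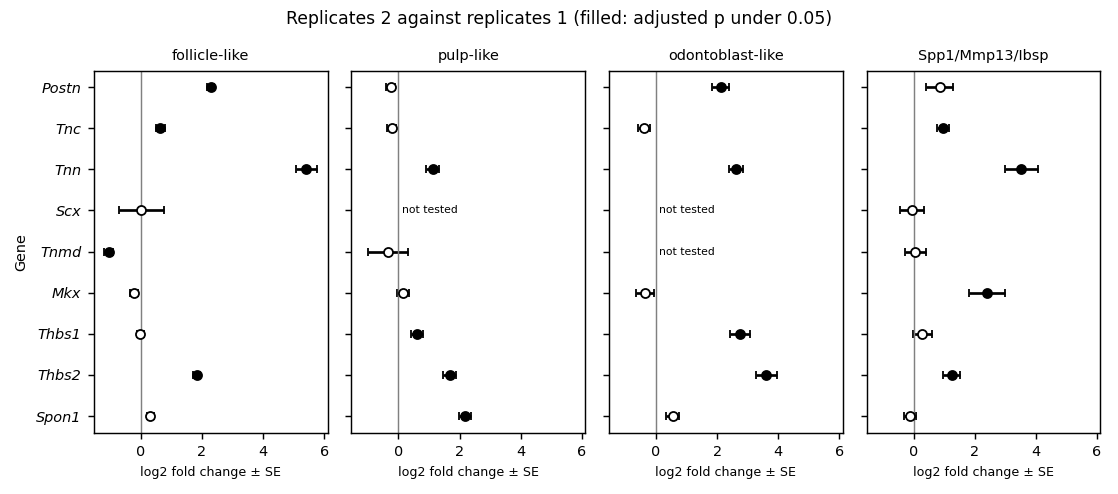
log2 fold change ± SE of the 9 genes between libraries numbered 2 and those numbered 1, with genotype as a term, in 1 panel per cell group, with filled points for an adjusted p under 0.05. Tnn and Thbs2 lie to the right of 0 in every panel, and Tnmd in follicle lies at -1.05.

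The size of the follicle differences also changed with the library number. The log2 difference of follicle against pulp was larger in the libraries numbered 2 by 4.25 for Tnn (SE 0.506, adjusted p = 0.00303) and smaller by 1.88 on the log2 scale for Spon1 (interaction -1.88, SE 0.335, adjusted p = 0.0229, edgeR), where 0.29% of all genes were called in the former direction and 0.766% in the latter. For Postn the interaction was 2.49 (adjusted p = 0.0666, edgeR). Against odontoblast the interaction was -3.73 for Tnmd (SE 0.659, adjusted p = 0.0149) and -2.81 for Thbs1 (SE 0.313, adjusted p = 0.0017, edgeR), where 1.69% of all genes were called in that direction and 0.208% in the other.

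The labels' knockout was first checked by its own gene. Din was at 36.31 and 28.48 CPM in the mesenchyme-like cells of the WT libraries and at 22.82 and 28.18 CPM in those of the Din-KO libraries. Both Din-KO values were below both WT values, but those of the libraries numbered 2 were close. Where these 3' tags lie relative to the deleted exon was not examined, so the levels do not settle whether the labels hold. Cells with Y-linked UMIs and little Xist made up 43.5% and 43.8% of the mesenchyme-like cells of the Din-KO libraries and 0 of those of the WT libraries, so sex and genotype cannot be told apart in the whole libraries. Mesenchyme-like cells with at least 3 Xist UMIs and 0 Y-linked ones numbered 2604 in WT 1, 806 in WT 2, 1087 in Din-KO 1 and 285 in Din-KO 2. By these markers each Din-KO library held cells from mice of both sexes, and the number of mice stays unknown. With only cells that had at least 3 Xist UMIs and 0 Y-linked ones, 0 of the 9 genes were called in follicle, pulp or mesenchyme.

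With genotype as the only term in edgeR, none of the 9 genes passed the test between Din-KO and WT in follicle-like, pulp-like, odontoblast-like or all mesenchyme-like cells or in the Spp1/Mmp13/Ibsp cluster. Of all genes tested, edgeR called 0.00734% in pulp and 0% in each of the other 4 groups. The 1 gene called was the Y-linked Ddx3y in pulp (log2 fold change 11.27, adjusted p = 0.0316, edgeR), named after its value was seen. Before adjustment, p was under 0.05 for 334 genes in follicle, 226 in pulp, 77 in odontoblast, 158 in mesenchyme and 226 in the cluster. DESeq2 called 34 genes higher and 3 lower in follicle, 11 and 1 in pulp and 16 and 0 in mesenchyme, and 0 of the 9 were among them. With 2 libraries on each side, 0.333 is the smallest two-sided p that exact permutation of the labels allows.

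Tnmd in follicle-like cells was higher in Din-KO than in WT within each number, at 87.84 against 55.18 CPM and at 46.83 against 25.61 CPM, but the 2 genotypes overlapped. Tnmd lies on the X chromosome, and sex and genotype cannot be told apart in the whole libraries. The log2 fold change of Tnmd was 0.68 (SE 0.479) in follicle and 0.70 (SE 0.333) in mesenchyme, each with an adjusted p of 1 in edgeR. With a block for the replicate number, which is no stated pairing, Tnmd was called in both groups, as given in the last section. In follicle, Thbs1 was the 1 gene of the 9 whose Din-KO values both exceeded the WT values (0.28, SE 0.202), beside 16.6% of all genes, and Mkx the 1 with both below (-0.40, SE 0.221), beside 7.92%. In pulp Postn was above (0.45, SE 0.244, 10.3% of all genes) and Tnc (-0.47, SE 0.289) and Tnmd (-0.33, SE 0.649) were below (13.1%). In odontoblast-like cells Spon1 was above (0.54, SE 0.368, 12.9% of all genes) and 0 were below (5.99%). In all mesenchyme-like cells Tnmd was above (11.1% of all genes) and 0 members below (6.47%).

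The remaining differences in follicle were smaller than their errors, at -0.45 for Postn (SE 0.921), -0.41 for Tnn (SE 1.87), -0.25 for Thbs2 (SE 0.753), -0.22 for Spon1 (SE 0.24), 0.20 for Tnc (SE 0.341) and 0.32 for Scx (SE 0.759). Tnn in pulp (-1.27, SE 0.524) and Thbs1 in the Spp1/Mmp13/Ibsp cluster (1.02, SE 0.385) passed 0.05 before adjustment only, with an adjusted p of 1 and of 0.999 in edgeR. Without a filter on low counts Tnn in pulp did pass (-1.28, adjusted p = 0.00658, edgeR). Tnn in pulp also passed with a block for the replicate number, as given in the last section. Its levels there were 23.04 and 83.43 CPM in WT and 18.46 and 23.55 CPM in Din-KO libraries (numbered 1, then 2). The genotypes thus overlapped, and WT replicate 2 alone stood apart. Dissociation stress genes in follicle-like cells summed to 599.9 and 1450 CPM in WT and to 1397 and 2543 CPM in Din-KO libraries (numbered 1, then 2), and their part in these values was not tested. None of the genes of the 5 lists passed the test in these comparisons of genotype.

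**Figure D5:**
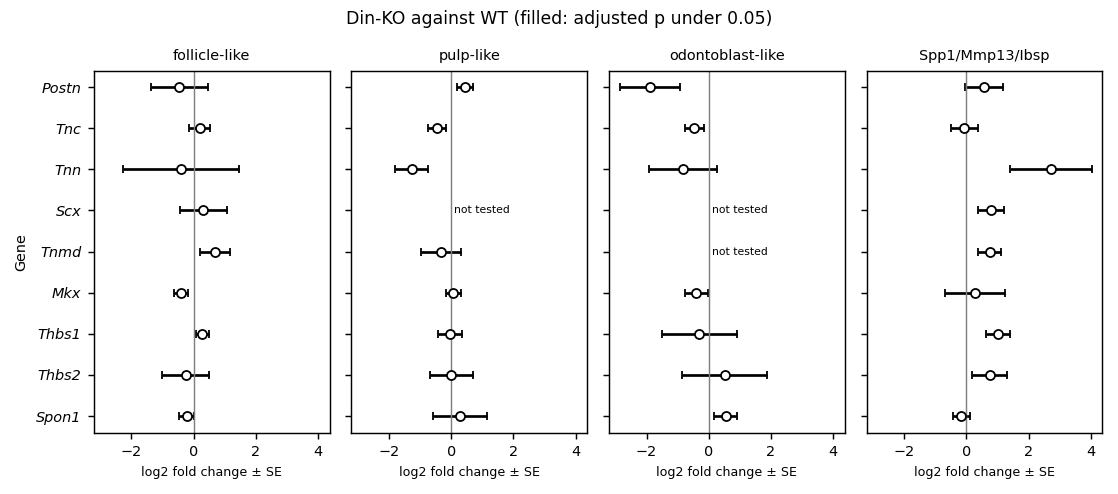
log2 fold change ± SE of the 9 genes between Din-KO and WT, in 1 panel for each of follicle-like, pulp-like and odontoblast-like cells and the Spp1/Mmp13/Ibsp cluster, with open points where the adjusted p was 0.05 or more. Every point is open, and the error bars of Tnn are the widest in follicle (SE 1.87).

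The follicle to pulp difference itself was not called different between genotypes for any of the 8 genes tested, in an interaction test where 1 of 13446 genes (0.00744%) was called. That gene was Cdkn1a, a cell cycle inhibitor (3.74, adjusted p = 0.0443, edgeR), named after its value was seen, and 382 genes had an unadjusted p under 0.05. The interaction was 0.99 for Tnmd (SE 1.07), 0.71 for Tnc (SE 0.464), -0.72 for Postn (SE 1.07) and -0.72 for Spon1 (SE 0.744).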

How the data were processed

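Single-cell suspensions of proximal lower incisors were run on 10x Genomics 3' v3.1 chemistry, and the deposited matrices hold raw UMI counts per gene and barcode, which the authors made with CellRanger 6.0.2 on mm10 (GRCm38). They were used as deposited. Totals over all barcodes, before filtering, were 32198098 to 54348039 UMIs per library. Barcodes under 1000 genes, over 10% mitochondrial or over 3% hemoglobin UMIs were removed, and the rest were clustered in Seurat 5.3.0 (R 4.3.3) on 2000 variable genes without the 9 genes, with cell-cycle regression, CCA integration, 30 components and a resolution of 1. Clusters took a class name from markers other than the 9 genes. Scrublet in Scanpy 1.11.5 called 222 doublets (1.963%), which were kept. Before thinning to 2000 UMIs, 24, 26, 11 and 15 shallower cells of WT 1, Din-KO 1, WT 2 and Din-KO 2 were left out.

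UMIs were summed per library and class and tested with edgeR 4.0.16 (TMM, filterByExpr, quasi-likelihood, Benjamini-Hochberg over all genes, threshold 0.05), with the library as a block between classes. Each SE of an edgeR log2 fold change was derived from the test, as the absolute log2 fold change over the square root of its F statistic. DESeq2 1.42.0, other filters, clusterings, gates and left-out libraries were alternatives. In simulated counts, 90.5% of 200 genes changed 4-fold were recovered for follicle against pulp (13446 genes) and 80% for genotype in follicle (12463 genes). Beside them, 13 and 30 unchanged genes were called. The simulation gave unchanged genes the same mean in all libraries. Its shares are over all changed genes and need not hold for a gene of wide spread between libraries, such as Tnn. All 9 genes were named, with the 3 genes most like each in clusters of at least 20 cells and 5 CPM, and up to 3 genes per direction from each list. The 9 genes, the lists and the rule for naming clusters were chosen with earlier results of these data known.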

Additional observations from a re-analysis of the deposited data

Results flagged for a closer look

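In 4 cases the difference between classes itself differed between the libraries numbered 2 and those numbered 1, by an interaction term in edgeR with Benjamini-Hochberg adjustment over all genes. For follicle against pulp the interaction (numbered 2 minus numbered 1, log2) was 4.25 for Tnn (SE 0.506, adjusted p = 0.00303), where the follicle to pulp ratio of CPM was 0.605 and 2.27 in WT 1 and Din-KO 1 and 16 and 44.1 in WT 2 and Din-KO 2, and -1.88 for Spon1 (SE 0.335, adjusted p = 0.0229), where pulp changed by 2.18 and follicle by 0.31 between the numbers. For follicle against odontoblast it was -3.73 for Tnmd (SE 0.659, adjusted p = 0.0149), which rests on 2, 2, 10 and 14 UMIs in odontoblast-like cells, and -2.81 for Thbs1 (SE 0.313, adjusted p = 0.0017), where the Dspp-rich cluster had 9, 16, 65 and 44 cells. These interactions were added after the data had been seen. What the library number stands for is not given, and the part of the markers that moved with it was not tested.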

How the results depend on the processing

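The class differences mostly kept both their direction and their side of the threshold: 136 of 152 values for follicle against pulp, 137 of 152 for follicle against odontoblast and 43 of 48 between follicle subsets, with 1, 2 and 1 reversed in direction. Between genotypes 33 of 40 interaction values, 105 of 122 in follicle, 91 of 117 in pulp and 102 of 126 in mesenchyme kept both. In the same order, 7, 16, 24 and 23 values were reversed in direction. None of the reversed values between genotypes was called. The cause of these changes was not tested. Libraries by number, the joined Spp1/Mmp13/Ibsp cluster and the left-out pulp and odontoblast clusters were chosen after seeing the data.

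With cells gated one by one, 276 genes were higher and 392 lower in follicle than in pulp, 2 of the 9 genes higher, and 2107 and 2182 against odontoblast. With the WT libraries alone these counts were 954 and 962 against pulp and 1641 and 1320 against odontoblast, and with the Din-KO libraries alone 980 and 792, and 1894 and 1534. Without the library block 1563 and 1483 genes were called against pulp. Without the Bglap/Bglap2/Dspp cluster Thbs1 against odontoblast was 3.41. In the libraries numbered 1 Postn against pulp was -0.31 and Thbs1 against odontoblast 0.55, and in those numbered 2 1385 genes were lower than in pulp and 1 of the 9 genes lower than in odontoblast, as also without integration and with the 9 genes among the variable genes. Without a filter on low counts 2 of the 9 genes were higher in the Bmp3/Dkk2/Nts subset.

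For genotype, DESeq2 called 34 genes higher and 3 lower in follicle, 11 and 1 in pulp, 16 higher in mesenchyme and 3 for the interaction. Without a filter on low counts 67 and 6 were called in follicle, 39 and 11 in pulp and 7 higher in mesenchyme, with Tnn lower in pulp (1 of the 9 genes, -1.28, adjusted p = 0.00658) and Thbs2 at -0.0094. Cells with Xist alone gave 2 genes higher in follicle and 0 in pulp, with Postn at 0.10, Spon1 at 0.092 and Tnn at 0.21 in follicle, Postn at 0.39, Thbs1 at 0.15, Tnc at 0.20 and Tnn at 0.018 in mesenchyme, and Spon1 at -0.20 and Thbs2 at -1.20 in pulp. Gated cells gave Spon1 at 0.066 and Thbs2 at 0.23 in follicle, Postn at 0.051 and Thbs1 at 0.27 in mesenchyme, Mkx at -0.13, Spon1 at -0.041, Thbs1 at 0.61, Thbs2 at -0.17 and Tnmd at 1.05 in pulp, where 0 genes were higher. With the 9 genes among the variable genes 1 gene was higher in follicle and 2 in pulp, and Thbs1 in pulp was 0.069. Without integration 3 were higher in follicle and 0 in pulp, with Tnc in follicle at -0.16 and Mkx at -0.020, Thbs1 at 0.21 and Thbs2 at -0.28 in pulp. A resolution of 0.5 gave 2 genes higher in pulp, Thbs1 there at 0.13 and Postn in mesenchyme at 0.013. Without cells of high doublet score Postn in mesenchyme was 0.071 and Thbs2 in pulp -0.053, and without the Slc20a2/Postn/Pdlim3 cluster Postn in pulp was -0.34, Thbs1 0.0072 and Thbs2 -0.057.

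The replicate number was shared by 2 pairs only, whose deviations correlated at 0.63 in follicle, 0.607 in pulp, 0.74 in odontoblast and 0.829 in mesenchyme. Libraries of the same number thus moved together across genes. The labels do not state a pairing, so a block for the number was an alternative and no part of the main test. With a replicate block 167 genes were higher and 33 lower in follicle, 186 and 135 in pulp and 177 and 77 in mesenchyme. Tnmd was then called in follicle (0.70, adjusted p = 0.0366) and mesenchyme (0.70, adjusted p = 0.0437), 1 of the 9 genes each, and Tnn in pulp (-0.91, adjusted p = 0.0137), 1 lower, while Tnn in follicle was 0.24, Thbs1 in mesenchyme 0.29 and Thbs1 in pulp 0.17.

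Leaving out 1 library at a time moved the calls against pulp between 1583 and 2055 lower genes, the 9 genes lower than in odontoblast between 0 and 1, and between the subsets the higher genes between 833 and 1262, the lower between 826 and 1268, the 9 genes lower between 1 and 2 and Postn between -0.20 and 0.57. For the interaction with genotype the higher genes were 0 to 0, Postn ran from -2.18 to 0.64, Spon1 from -1.91 to 0.36, Thbs1 from -0.37 to 0.75 and Tnn from -1.06 to 3.92. In follicle between genotypes 26 to 72 genes were higher and 5 to 23 lower, Postn ran from -2.05 to 1.07, Scx from -0.26 to 0.95, Thbs2 from -1.46 to 0.91, Tnc from -0.17 to 0.70 and Tnn from -4.04 to 5.15. In mesenchyme 2 to 8 were higher, Mkx ran from -0.52 to 0.11, Postn from -0.98 to 0.70, Scx from -0.42 to 1.21, Spon1 from -1.10 to 1.05, Thbs1 from -1.07 to 1.91, Thbs2 from -2.33 to 1.998, Tnc from -0.90 to 0.22 and Tnn from -3.75 to 3.48. In pulp 2 to 42 were higher and 0 to 41 lower, Mkx ran from -0.058 to 0.19, Spon1 from -0.81 to 2.003, Thbs1 from -0.54 to 0.66 and Thbs2 from -0.96 to 1.00. The lone library of a genotype was there assumed to vary like the other. Depth limits Scx most, with 247 UMIs in all kept cells.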
